A study of Mus musculus with 10 samples.

Results

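Lung metastatic cell lines that share a genotype and a control hairpin fall into 2 blocks of line numbers, and the comparison here set lines 382 and 383 against lines 376, 377 and 378. These 5 lines are all of the control metastatic lines among the 10 libraries of the series, and no other library entered the fit. RNA was sequenced from mouse esophageal squamous cell carcinoma lines of a mixed background strain with the genotype Trp53R172H/-, that is, with a missense mutant Trp53 allele and no other Trp53 allele. The control lines carried the hairpin shCtrl. The series also holds 3 metastatic lines with the hairpin shTrp53, numbered 384, 386 and 387, which lowers the mutant transcript, and 1 primary line with each hairpin, and the values of these 5 lines are given beside those of the blocks. Metastatic lines were grown in culture from dissociated lungs taken at week 8 and then sorted for the fluorescent marker YFP. The labels give no age of the animals, and no label says what the line numbers stand for or whether the lines of a block came from separate mice, so the spread measured is that between these cultured lines.

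Squamous carcinoma cells resemble the stratified lining of the esophagus, in which basal cells divide and their daughters move up, stop dividing and make the cornified envelope, a shell of cross-linked small proline-rich proteins. Dividing cells make DNA replication proteins in S phase and the proteins of the mitotic spindle in G2 and M phase, and they need new membrane, for which cholesterol is built along the mevalonate pathway from acetyl-CoA and fatty acids are built by Fasn and desaturated by the Scd enzymes. Genes of these lipid pathways are known targets of the SREBP transcription factors, genes of S phase are known targets of E2F factors, and many genes of mitosis are known to be controlled through CHR elements and CCAAT boxes in their promoters.

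Total counts were 11644562 to 14213640 in lines 376 to 378 and 12280102 and 14214802 in lines 382 and 383, and the 10 most abundant genes took 4.59 to 5.05% of the counts in the 5 lines. Levels are given as CPM, counts scaled to a common library size by the TMM method over all 10 libraries. The targeted gene Trp53 ranged from 94.5 to 131 CPM with the control hairpin in the 5 metastatic lines, and shTrp53 lines 384, 386 and 387 held 5.16 to 7.36 CPM. All 12 squamous markers were detected, and their summed level was 11851 to 16978 CPM in lines 376 to 378 and 16275 and 17709 CPM in lines 382 and 383. Of the fibroblast markers 3 of 10 were measured (Col1a1, Dcn and Pdgfra), and they summed to 3.64, 3.30 and 8.11 CPM in lines 376, 377 and 378 and to 10.9 and 8.00 CPM in lines 382 and 383. The 2 of 10 immune markers measured, Cd68 and Cd14, summed to 124 to 137 CPM in the first block and to 140 and 103 CPM in the second. The endothelial markers measured (2 of 8, Pecam1 and Eng) summed to 2.17 to 3.85 CPM, and Hopx, the 1 of 10 lung epithelial markers measured, stood at 1.61 to 6.82 CPM. The other markers of these lists were not analysed here. In all 5 marker lists the summed levels of the blocks overlapped, and their part in the differences between the blocks was not tested. No marker measured was at 0 in any of the 5 lines. In bulk libraries such as these, fewer cells of a type and less RNA per cell cannot be told apart.

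The split by line number was chosen by expression values of these same lines, those of Birc5 and of mitosis, replication and sterol genes. Birc5, which encodes survivin, a subunit of the chromosomal passenger complex, stood at 442, 342 and 297 CPM in lines 376, 377 and 378 and at 254 and 194 CPM in lines 382 and 383. All values between the blocks are therefore descriptions of how far apart the lines stand relative to the spread within each block, and they support nothing beyond that. With edgeR's quasi-likelihood test, 1045 of 12045 genes passed a Benjamini-Hochberg adjusted p of 0.05 (8.68%), and such genes are named called here. The calls comprised 529 genes higher in lines 382 and 383 (4.39%) and 516 lower (4.28%). Differences are given on the log2 scale as lines 382 and 383 minus lines 376 to 378, with their standard error (SE). Levels did not overlap between the blocks for 45.3% of the genes tested, 22.0% higher and 23.4% lower, and an exact permutation test of a single gene with 3 lines against 2 cannot go below 0.1. The median size of a difference was 0.30 over all genes and 0.79 over the called genes, of which 139 were at least 2-fold higher and 157 at least 2-fold lower in lines 382 and 383.

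The number of calls depended on single lines, most of all on line 383. Without line 383, 4 genes were called, namely Mvd, Sox4, Sprr2k and Tslp (all 4 among the 1045), and 1591 genes had an unadjusted p under 0.05. In that fit line 382 stood alone, as line 383 did in the fit without line 382. Each was then assumed to vary like the other block. The number called was 188 without line 382 and 268 without line 377, and it was 1328 without line 376 and 1551 without line 378. All called genes that could be measured kept their direction in each of these 5 fits, but 3 of them, Mvd, Sox4 and Sprr2k, were called in all 5. Because the blocks did not overlap in any of the 1045 called genes, leaving out 1 line could hardly reverse a direction. Tested against a 1.5-fold change in place of no change, 28 genes passed (0.232%), 12 higher and 16 lower in lines 382 and 383. The higher ones included Krtap3-2, Sprr1a, Sprr2k, Epgn, Nr1d1 and Sox4. The lower ones included Dna2, Asf1b and Nubp1. They also held Mvd, Acat2, Nsdhl, Hmgcs1 and Mvk of sterol synthesis, Tyms, Mcm6 and Mcm7 of DNA replication and Aurkb of mitosis. The split was chosen by genes of these kinds.

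Line by line, the blocks were not equally tight. Of 9390 genes compared, 0.969% differed at least 2-fold between lines 382 and 383 and 0.980% between lines 377 and 378, whereas 2.36% did between lines 376 and 377 and 4.30% between lines 376 and 378. Pairs across the blocks ranged from 2.59% (lines 378 and 382) to 11.3% (lines 376 and 383). The 2 pairs of line 382 with lines 377 and 378, at 3.48% and 2.59%, thus lay below the pair of lines 376 and 378 within the first block. The largest values across the blocks were those of line 376, at 9.71% with line 382 and 11.3% with line 383. Against the 3 shTrp53 metastatic lines, lines 382 and 383 differed at 3.93 to 11% of the genes and lines 376 to 378 at 8.50 to 21.2%. Against the 2 primary lines the ranges were 11.4 to 16.6% for lines 382 and 383 and 6.01 to 8.58% for lines 376 to 378.

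**Figure D1:**
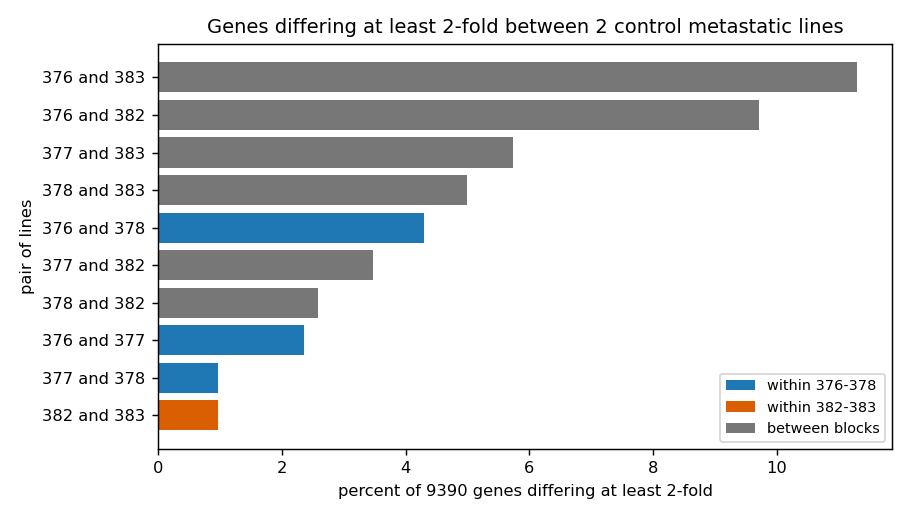
Each bar gives the percent of 9390 genes that differ at least 2-fold in CPM between 2 control metastatic lines, in blue within lines 376 to 378, in orange within lines 382 and 383 and in grey across the blocks. Pairs across the blocks run from 2.59 to 11.3%, and the pair of lines 376 and 378, at 4.30%, lies above 2 of the 6 of them.

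Sterol synthesis was the list with the largest share of called genes. The split was chosen by sterol, replication and mitosis genes, so the shares called in these lists are no independent support. All 25 members were tested, 17 were called lower in lines 382 and 383 and none higher (against 4.28% lower and 4.39% higher over all genes), and the median difference was -0.95 beside -0.01 over all genes. In 22 of the 25, beside 23.4% of all genes, every level in lines 382 and 383 lay below every level in lines 376 to 378. The number called lower was 17, 12, 17, 8 and 1 without line 376, 377, 378, 382 and 383 in turn. The promoters shown are those of Hmgcs1, of an early step of the mevalonate pathway, and of Mvd, of a late step. Both genes lie among the largest differences of the list. The 250 bases before the gene start are given 5′ to 3′ in the sense of the gene, from RefSeq on GRCm38.p6, for Mvd at chr8:122443423-122443672 on the minus strand and for Hmgcs1 at chr13:119690101-119690350 on the plus strand. Capitals mark CCAAT boxes, read as CCAAT or, on the other strand, as ATTGG, and the sterol regulatory element TCACNCCAC, the known binding site of SREBP, in Hmgcs1.
Mvd: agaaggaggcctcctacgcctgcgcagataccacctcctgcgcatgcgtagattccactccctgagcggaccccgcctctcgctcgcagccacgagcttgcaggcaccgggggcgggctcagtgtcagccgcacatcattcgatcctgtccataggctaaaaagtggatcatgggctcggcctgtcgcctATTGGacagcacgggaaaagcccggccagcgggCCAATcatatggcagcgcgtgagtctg
Hmgcs1: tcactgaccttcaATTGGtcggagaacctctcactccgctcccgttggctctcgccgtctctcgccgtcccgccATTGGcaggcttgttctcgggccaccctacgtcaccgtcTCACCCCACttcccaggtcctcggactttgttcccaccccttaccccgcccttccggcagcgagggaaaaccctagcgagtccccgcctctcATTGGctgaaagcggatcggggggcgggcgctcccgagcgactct
Over the 250 bases before to 50 bases after the start, 16 of the 17 members with a promoter in the table held a CCAAT box on either strand (94.1%), beside 43.2% of the 9617 tested genes with a promoter. The sterol element in these letters was found in 1 of the 17, Hmgcs1 (5.88%), beside 1.35% of those genes. These matches describe letters in the window and say nothing about binding in these lines.

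Mvd, mevalonate diphosphate decarboxylase, stood at 73.0, 72.9 and 54.5 CPM in lines 376, 377 and 378 and at 12 and 13.2 CPM in lines 382 and 383, a difference of -2.40 (SE 0.19). The blocks were far apart in Mvd relative to the spread within them. Sterol genes were among those by which the split was chosen, so this distance is no independent support. Acat2, the cytosolic acetoacetyl-CoA thiolase that feeds the pathway, stood at 796, 666 and 555 CPM against 161 and 114 CPM (-2.28, SE 0.21), and it has a near-identical neighbour with which it could share reads. Hmgcs1, which makes HMG-CoA, stood at 782, 782 and 620 CPM against 269 and 291 CPM (-1.37, SE 0.15). In each of these genes line 378 was the lowest of its block and still lay above lines 382 and 383.

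Further down the pathway, Nsdhl, a sterol dehydrogenase of the C4 demethylation step, stood at 108, 96.6 and 80.9 CPM against 33.9 and 22.4 CPM (-1.75, SE 0.21). Mvk (mevalonate kinase), Idi1 (isopentenyl diphosphate isomerase) and Fdps (farnesyl diphosphate synthase) differed by -1.32, -1.17 and -1.04. Cyp51, the lanosterol demethylase, stood at 652, 594 and 533 CPM against 292 and 271 CPM (-1.07, SE 0.14). Sqle, squalene epoxidase, differed less, with 898, 854 and 728 CPM against 506 and 495 CPM (-0.72, SE 0.14). Insig1, the ER protein that retains SREBP, was called lower as well (-0.82). Sc5d, Lss, Fdft1 and Ebp, also called, differed by -0.74 to -1.06. The 8 members not called included Tm7sf2, Stard4, Dhcr7, Msmo1, Pmvk, Hsd17b7 and Srebf2. Among them Srebf2, which encodes the sterol-responsive SREBP2 itself, stood at 78.7, 73.6 and 55.6 CPM against 64.5 and 76.7 CPM, so its levels overlapped between the blocks (0.04, SE 0.18). Msmo1, an oxidase of the same C4 step as Nsdhl, stood at 748, 721 and 658 CPM against 585 and 582 CPM (-0.27, SE 0.13, not called).

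In fatty acid synthesis 6 of 14 members were called lower (42.9%, beside 4.28% of all genes) and none higher, with a median difference of -0.96. Levels of 10 members lay lower without overlap (23.4% of all genes did), and those of Me1 lay higher. Scd2, a stearoyl-CoA desaturase, stood at 495, 279 and 240 CPM in the first block and at 71.1 and 80.1 CPM in the second (-2.15, SE 0.32). Scd1, its close relative on the same chromosome with which it could share reads, stood at 61.3, 37.2 and 30.4 CPM against 10.7 and 10.7 CPM (-2.0, SE 0.30). In both desaturase genes line 376 was the highest of the 5. Elovl6, the elongase acting before the desaturases, stood at 70.5, 53.5 and 35.3 CPM against 16.4 and 18.1 CPM (-1.61, SE 0.28). Acly, which makes cytosolic acetyl-CoA from citrate, stood at 87.1, 61.6 and 69.5 CPM against 31.5 and 31.6 CPM (-1.19, SE 0.18). Acsl3 and Fads2 were called with -0.72 and -0.46. Fasn, the fatty acid synthase, was not called, with 77.9, 30.7 and 30.1 CPM against 12.1 and 15.9 CPM (-1.71, SE 0.48), and line 376 alone held more than lines 377 and 378 together. Srebf1, which encodes SREBP1, overlapped between the blocks at 18.9, 9.90 and 13.8 CPM against 9.01 and 11.6 CPM (-0.46, SE 0.29). Leaving out each line in turn left 8, 4, 6, 1 and 0 members called lower.

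The 2 lipid lists also differed in the lines outside the comparison. For the sterol list, the median level relative to the mean of all 10 lines was 0.73, 0.42 and 0.30 (log2) in lines 376, 377 and 378, -0.35 and -0.45 in lines 382 and 383, -0.65, -0.36 and -0.68 in shTrp53 lines 384, 386 and 387, and 0.63 and 0.65 in the shCtrl and shTrp53 primary lines. Values for the fatty acid list were 0.71, 0.31 and 0.23, then -0.46 and -0.43, then -0.72, -0.35 and -0.81, and 0.45 and 0.93 in the primary lines. Lines 382 and 383 thus lay on the side of the shTrp53 metastatic lines in both lists, and lines 376 to 378 on the side of the primary lines. Single members could depart from this order. For Mvd, the shTrp53 metastatic lines, at 21.9 to 31.8 CPM, lay above lines 382 and 383.

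DNA replication followed, with 16 of 27 members called lower (59.3%, beside 4.28% of all genes), none called higher and a median difference of -0.79. Levels of 23 members lay lower without overlap, beside 23.4% of all genes. The promoter of Mcm6 is shown because it holds the letters TTTNGCGC of an E2F site 3 times, counting an overlapping match on the other strand. It is given as above, at chr1:128359706-128359955 on the minus strand, with E2F matches and CCAAT boxes (here ATTGG) in capitals.
Mcm6: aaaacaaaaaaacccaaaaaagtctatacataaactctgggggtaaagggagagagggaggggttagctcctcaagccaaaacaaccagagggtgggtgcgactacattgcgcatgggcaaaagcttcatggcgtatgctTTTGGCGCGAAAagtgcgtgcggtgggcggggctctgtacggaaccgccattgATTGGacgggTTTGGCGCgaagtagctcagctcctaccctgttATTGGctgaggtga
Of the 22 members with a promoter in the table, 8 held the E2F letters (36.4%), beside 2.97% of tested genes, and 13 held a CCAAT box (59.1%), beside 43.2%. The search for E2F letters was added after the expression values had been seen.

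Mcm6, a subunit of the replicative helicase, stood at 426, 410 and 345 CPM in lines 376, 377 and 378 and at 154 and 134 CPM in lines 382 and 383 (-1.44, SE 0.15). Mcm7 was close behind at 239, 231 and 197 CPM against 88.2 and 72.5 CPM (-1.46, SE 0.15), and Mcm4 and Mcm5 differed by -0.90 and -0.84. Mcm2 and Mcm3, subunits of the same ring, were not called. Mcm2 stood at 168, 180 and 174 CPM against 169 and 155 CPM (-0.09, SE 0.12), overlapping between the blocks, and Mcm3 differed by -0.44 (SE 0.13). The helicase genes therefore spread over a wide range in these lines. Among nucleotide synthesis genes, Tyms, thymidylate synthase, stood at 308, 269 and 221 CPM against 98.7 and 74.7 CPM (-1.61, SE 0.18), and Rrm2, the regulated subunit of ribonucleotide reductase, stood at 883, 688 and 542 CPM against 369 and 316 CPM (-1.03, SE 0.20). Tk1, thymidine kinase, differed within the second block, with 106 CPM in line 382 and 48.2 CPM in line 383 against 179 to 218 CPM (-1.37, SE 0.31). Rrm1, the other subunit of the reductase, was not called (-0.44, SE 0.14).

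Fen1 and Lig1, which process and seal Okazaki fragments, differed by -0.84 and -1.09. The S-phase cyclin genes Ccne1 and Ccne2 differed by -0.98 and -1.0, and the polymerase and primase genes Pola1 and Prim1 by -0.98 and -0.68. Gins1, Rfc3 and Cdc45 were the remaining called members (-0.98, -0.79 and -0.64). Pcna, the sliding clamp, was not called, at 184, 176 and 145 CPM against 133 and 115 CPM (-0.43, SE 0.15). Cdt1, Gins2 and Pold1 overlapped between the blocks, with differences of -0.04, 0.09 and 0.00. Dna2, a nuclease and helicase that acts on Okazaki fragments and is not in the list, had the largest negative difference among the 12 lower genes named further on, which were taken among called genes. It stood at 12.1, 9.55 and 9.45 CPM against 1.52 and 1.70 CPM (-2.67, SE 0.32), and lines 384, 386 and 387 stood at 1.58, 2.21 and 1.94 CPM. The number of list members called lower without line 376, 377, 378, 382 and 383 was 15, 5, 20, 7 and 0.

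Genes of the chromosomal passenger complex and mitosis also stood lower in lines 382 and 383, by less. Of 27 members 12 were called lower (44.4%, beside 4.28% of all genes) and none higher, and the median difference was -0.56. Levels of 22 members lay lower without overlap, beside 23.4% of all genes. The promoters of Cdc20 and Top2a are shown as 2 members with CHR elements and CCAAT boxes. Cdc20 is at chr4:118437344-118437593 and Top2a at chr11:99024190-99024439, both on the minus strand. Capitals mark the CHR element TTTGAA and the CCAAT box in either orientation.
Cdc20: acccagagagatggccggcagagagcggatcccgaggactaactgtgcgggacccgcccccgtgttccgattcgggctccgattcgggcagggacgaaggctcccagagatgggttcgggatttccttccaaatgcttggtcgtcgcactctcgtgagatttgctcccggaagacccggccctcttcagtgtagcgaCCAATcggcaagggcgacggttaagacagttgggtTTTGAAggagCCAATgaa
Top2a: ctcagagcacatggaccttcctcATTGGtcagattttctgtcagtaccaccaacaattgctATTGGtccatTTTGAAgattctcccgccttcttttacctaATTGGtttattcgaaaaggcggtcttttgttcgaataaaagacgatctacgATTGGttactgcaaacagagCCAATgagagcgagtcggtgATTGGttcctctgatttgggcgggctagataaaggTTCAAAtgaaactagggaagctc
In Cdc20 the CHR element starts at position -18 from the gene start, after a CCAAT box at -53, and in Top2a the CHR matches start at -179 and -23. A CHR element was found in 15 of the 21 members with a promoter (71.4%), beside 14.3% of tested genes, and a CCAAT box in 18 (85.7%), beside 43.2%. Called and uncalled members alike held the CHR letters, among the latter Aurka, Cdca8, Kif11 and Prc1.

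Aurkb, the kinase of the chromosomal passenger complex, stood at 199, 187 and 164 CPM in lines 376, 377 and 378 and at 74.1 and 59.2 CPM in lines 382 and 383 (-1.45, SE 0.16). The other subunits differed less. Birc5 was not called (-0.68, SE 0.19), nor were Cdca8 (borealin) and Incenp, which differed by -0.34 and -0.21, although the levels of all 3 lay lower without overlap. Cdk1, the mitotic kinase, stood at 376, 336 and 275 CPM against 146 and 117 CPM (-1.31, SE 0.17), while its partner Ccnb1, cyclin B1, overlapped at 402, 401 and 392 CPM against 406 and 362 CPM (-0.04, SE 0.12). Plk1 and Bub1b, kinases of mitotic entry and of the spindle checkpoint, differed by -1.11 and -1.20, and Kif20a, a kinesin of cytokinesis, by -1.04.

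Cdc20, the activator of the anaphase-promoting complex, stood at 419, 368 and 340 CPM against 241 and 244 CPM (-0.62, SE 0.14). Top2a, the topoisomerase that untangles sister chromatids, stood at 328, 345 and 323 CPM against 242 and 244 CPM (-0.44, SE 0.12), a small difference between tight blocks. Cenpa and Tpx2 differed by -0.85 and -0.85, Ttk by -0.79, Ccnb2 by -0.59 and Ccna2 by -0.47. Mki67, the widely used marker of dividing cells, stood at 146, 82.7 and 84.5 CPM against 64.7 and 69.4 CPM and was not called (-0.63, SE 0.25), line 376 standing above the other 4. Mad2l1, Prc1, Nusap1, Bub1 and Ccnb1 were the members whose levels overlapped. Called members numbered 14, 6, 16, 6 and 0 without line 376, 377, 378, 382 and 383.

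The replication-dependent histone list, whose genes are transcribed in S phase, had no call among its 12 tested members of 23, and its median difference was 0.05. Hist1h1e stood at 77.1, 38.6 and 36.7 CPM against 59.5 and 39.0 CPM (-0.04, SE 0.36). Of the 12 tested members, those other than Hist1h2ak overlapped between the blocks, and the list's median level was highest in lines 376 and 382. Among the 20 tested genes whose names begin with Hist, Hist3h2a, outside the list, was called higher. At an unadjusted p of 0.05 the list had 1 gene, and DESeq2 and limma voom each called 1. Histone genes are near-identical copies, and reads could be shared among them.

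In the other lines the replication list stood at median levels of 0.49, 0.39 and 0.16 (log2, relative to all 10 lines) in lines 376, 377 and 378, -0.20 and -0.44 in lines 382 and 383, -0.42 to -0.44 in the shTrp53 metastatic lines and 0.62 and 0.49 in the primary lines. The mitosis list stood at 0.56, 0.52 and 0.43, then 0.00 and -0.07, then -0.60, -1.07 and -0.57, with 0.63 and 0.37 in the primary lines. For mitosis lines 382 and 383 lay between their fellow control lines and the shTrp53 lines, while for replication line 383 was level with the shTrp53 lines.

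**Figure D2:**
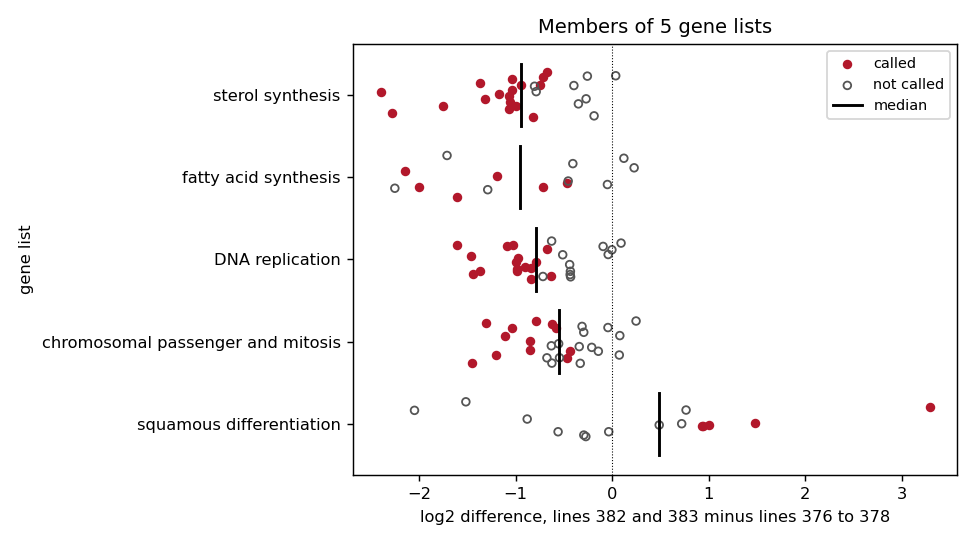
Each point is a tested member of 1 of 5 gene lists, placed by its log2 difference between the blocks (lines 382 and 383 minus lines 376 to 378), filled where called and open where not. Black bars mark the list medians, which are -0.95, -0.96, -0.79 and -0.56 for the lipid, replication and mitosis lists and 0.49 for squamous differentiation, whose members spread from -2.05 to 3.29.

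Genes of squamous differentiation formed a mixed group. Of 23 members 15 were tested, 5 were called higher (33.3%, beside 4.39% of all genes) and none lower, and the median difference was 0.49. The difference was below 0 in 7 of the 15. The blocks did not overlap in 6 that stood higher in lines 382 and 383 and in 3 that stood lower. Over all genes, 22.0% stood higher and 23.4% lower without overlap. Sprr1a, a small proline-rich precursor of the cornified envelope, stood at 0.350, 0.260 and 0.521 CPM in lines 376, 377 and 378 and at 3.20 and 4.37 CPM in lines 382 and 383 (3.29, SE 0.50), a low level throughout. Sprr1b stood at 3.29, 1.74 and 1.86 CPM against 5.89 and 6.96 CPM (1.48, SE 0.37). Dsg3, a desmosomal cadherin, stood at 63.7, 85.1 and 71.9 CPM against 135 and 143 CPM (0.93, SE 0.15). Klf4, a transcription factor of epithelial differentiation, stood at 62.0, 57.6 and 40.9 CPM against 107 and 106 CPM (1.00, SE 0.18), and the wound-associated keratin gene Krt16 differed by 0.94 (SE 0.22). In all 5 the blocks did not overlap.

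Other members went the opposite way or overlapped. Krt10, a keratin of suprabasal cells, stood lower at 19.1, 13.2 and 12.9 CPM against 10.2 and 10.1 CPM (-0.56, SE 0.25, not called). Grhl3, a grainyhead-like transcription factor, had the lowest difference of the list, at 1.40, 1.30 and 0.893 CPM against 0.505 and 0.0741 CPM (-2.05, SE 0.76, not called). Ivl (involucrin) and Krt6a were not called, with differences of 0.77 (SE 0.43) and 0.49 (SE 0.30). The envelope plakins Evpl and Ppl, at under 4 CPM in all 5 lines, were not called either. By median level over its members, relative to all 10 lines, the list stood at 0.24, -0.11 and -0.39 in lines 376, 377 and 378 and at -0.03 and -0.06 in lines 382 and 383. Line 376 therefore stood above lines 382 and 383 by this measure although the median of the fitted differences was positive. Members called higher numbered 6, 3, 5, 1 and 0 without line 376, 377, 378, 382 and 383.

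Few basal squamous genes were called. Of 15 tested members 2 were called higher and 1 lower (13.3% and 6.67%, beside 4.39% and 4.28% of all genes). The difference was below 0 in 3 of the 15. Krt17, a keratin of injured and tumour epithelium, stood at 2597, 2201 and 1881 CPM against 3290 and 3613 CPM (0.64, SE 0.16), and Dst, the hemidesmosomal dystonin, differed by 0.72 (SE 0.13). Krt5, the basal keratin, stood at 1509, 1083 and 821 CPM against 647 and 514 CPM (-0.96, SE 0.25), and it stood at 288, 161 and 388 CPM in the shTrp53 metastatic lines. Neither Krt17 nor Dst nor Krt5 was called without line 377, 382 or 383.

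The 24 largest named differences, 12 each way, were taken among called genes averaging 5 CPM or more whose blocks did not overlap. The highest was Krtap3-2, a keratin-associated protein of hair, at 0.840, 1.04 and 1.86 CPM in lines 376, 377 and 378 and at 16.2 and 17.2 CPM in lines 382 and 383 (3.74, SE 0.34). Edn2, the peptide endothelin 2, stood at 1.75, 4.51 and 5.80 CPM against 26.9 and 48.3 CPM (3.24, SE 0.45). Sprr2k, of the small proline-rich family, differed little within each block, at 15.1, 15.7 and 14.0 CPM against 56.5 and 67.9 CPM (2.07, SE 0.16). Sprr2h differed by 2.16, and members of the Sprr2 family are so alike that reads could be divided among them. Cdsn, corneodesmosin, stood at 0.630, 1.39 and 3.79 CPM against 8.59 and 13.3 CPM (2.51, SE 0.59), and Gjb2, connexin 26, differed by 2.09 (SE 0.45). Krtap3-2, Edn2, Cdsn, Sprr2h, Gjb2 and Cox6a2 reached the mean of 5 CPM only through the block where they were high. Their means were 1.25 to 4.02 CPM in lines 376 to 378.

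Secreted ligands were also present. Tslp, an epithelial cytokine, stood at 5.18, 6.43 and 6.10 CPM against 36.5 and 16.4 CPM (2.18, SE 0.32), with 103, 51.9 and 252 CPM in lines 384, 386 and 387. Epgn, a ligand of the EGF receptor, stood at 8.82, 14.7 and 10.5 CPM against 52.5 and 34.7 CPM (1.96, SE 0.25). Line 382 held the highest level of both genes among the 5 control lines. Ndrg1, a gene induced by hypoxia and differentiation, stood at 32.4, 56.7 and 75.6 CPM against 209 and 212 CPM (1.95, SE 0.30). Cox6a2, Napb and Fam129a completed the 12 with differences of 2.05, 2.04 and 1.85.

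Of the 12 lower genes, Dna2, Mvd, Acat2, Scd2 and Scd1 are described above. Cxcl1, a neutrophil chemokine, stood at 75.6, 41.8 and 38.2 CPM against 15.6 and 7.56 CPM (-2.16, SE 0.42). Thbs2, a matrix thrombospondin, stood at 12.3, 10.1 and 22.2 CPM against 3.45 and 3.70 CPM (-2.04, SE 0.37), and Arhgap18, a GTPase-activating protein, at 11.8, 12 and 11.3 CPM against 4.21 and 2.67 CPM (-1.76, SE 0.29). Uqcrh, a subunit of respiratory complex III, differed by -1.89, Casq2 by -1.94, Ankle1 by -1.79 and the protease gene Prss22 by -2.15. Dna2, Prss22, Thbs2 and Arhgap18 reached the mean of 5 CPM only through lines 376 to 378. Their means were 1.61 to 3.58 CPM in lines 382 and 383. All 24 kept their direction whichever line was left out, which the condition of no overlap made all but certain. They kept their call in 24 cases without line 376, 17 without 377, 24 without 378, 10 without 382 and 3 (Sprr2k, Tslp and Mvd) without 383.

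**Figure D3:**
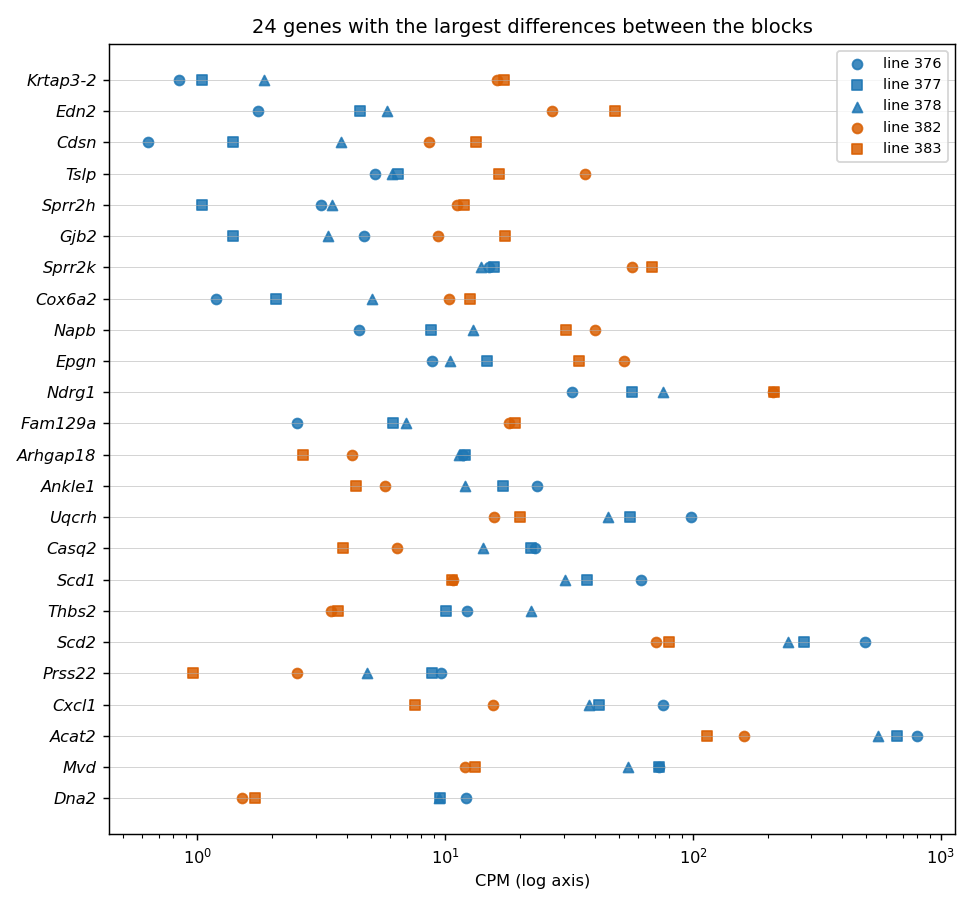
The 24 genes with the largest differences are shown with the CPM of each of the 5 control metastatic lines on a log axis, lines 376 to 378 in blue and lines 382 and 383 in orange. In every gene the colours do not overlap, which was a condition of the choice, and the spread within a block differs widely, from Arhgap18 (11.3 to 12 CPM in blue) to Cdsn (0.630 to 3.79 CPM in blue).

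Chemokine and cytokine genes varied within the blocks as well as between them. Of 15 tested members of 22, 1 was called higher (Tslp) and 2 lower (Cxcl1 and Ccl2), with a median difference of -0.92. These calls were 6.67% and 13.3% of those tested, beside 4.39% and 4.28% of all genes. Ccl2, a monocyte chemokine, stood at 183, 98.3 and 124 CPM against 52.1 and 27.3 CPM (-1.76, SE 0.35), and the shTrp53 metastatic lines stood at 11.9, 1.43 and 5.49 CPM. Cxcl5, a neutrophil chemokine, was set by line 376 alone, at 143 CPM there, 8.60 and 15.3 CPM in lines 377 and 378 and 8.25 and 3.41 CPM in lines 382 and 383 (-3.27, SE 1.74, not called). Median levels of the list, relative to all 10 lines, were 1.02, 0.39 and 0.90 in the first block and 0.45 and -0.11 in the second, so line 382 stood above line 377. Ccl2 was not called without line 378 or 383, Cxcl1 without line 377 or 383 and Tslp without line 382.

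Targets of wild-type p53 were read although these lines carry a mutant allele. Trp53 itself was not called, at 101, 102 and 94.5 CPM against 115 and 131 CPM (0.32, SE 0.13). All 30 members were tested, 4 were called higher and 2 lower, and the median was 0.24. These calls were 13.3% and 6.67% of the list, beside 4.39% and 4.28% of all genes. Plk2, a polo-like kinase, stood at 933, 1417 and 1362 CPM against 2664 and 2310 CPM (1.02, SE 0.19). Pmaip1 (Noxa), a BH3-only inducer of apoptosis, stood at 131, 177 and 143 CPM against 247 and 307 CPM (0.89, SE 0.16). Cdkn1a, the cyclin-dependent kinase inhibitor p21, stood at 100.1, 122 and 97.1 CPM against 185 and 144 CPM (0.64, SE 0.16), and Aen, an exonuclease, differed by 0.67 (SE 0.14). Sesn1 and Tigar, with roles in metabolism and redox control, were lower (-0.82 and -0.71). Higher calls numbered 6, 3, 7, 1 and 0 without line 376, 377, 378, 382 and 383, and lower calls 2, 0, 2, 0 and 0.

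None of the 9 tested inhibitors of apoptosis of 10 was called. Bcl2l1 (Bcl-xL) stood at 298, 445 and 371 CPM against 458 and 328 CPM, overlapping between the blocks (0.09, SE 0.19), and Bcl2 stood at 12.9, 11.4 and 8.55 CPM against 6.15 and 4.44 CPM (-1.04, SE 0.29). Among 15 tested pro-apoptotic genes of 18, Bid and Pmaip1, which encode BH3-only proteins, were called higher (13.3%, beside 4.39% of all genes). Bid differed by 0.53 (SE 0.13) and Pmaip1 by 0.89. Without line 383 neither was called, and Bid was not called without line 382 or without line 377. At an unadjusted p of 0.05 the inhibitor list had 1 gene, Bcl2, which DESeq2 and limma voom both called.

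NRF2 targets, genes of glutathione and NADPH supply, held 6 lower calls and 1 higher among 20 members, with a median of -0.46. These calls were 30% and 5% of the list, beside 4.28% and 4.39% of all genes. Gclm and Gclc, the subunits of glutamate-cysteine ligase, differed by -0.81 (SE 0.21) and -0.74 (SE 0.18). The pentose phosphate genes Tkt, Pgd and G6pdx differed by -0.62, -0.70 and -0.71. Tkt stood at 380, 359 and 362 CPM against 284 and 192 CPM. Nqo1, a defining member, was set apart by line 383, at 269, 183 and 247 CPM in the first block, 199.6 CPM in line 382 and 67.7 CPM in line 383 (-0.79, SE 0.47, not called). The heme-degrading Hmox1 went the other way, at 30.5, 40.5 and 41.7 CPM against 65.1 and 60.4 CPM (0.75, SE 0.17), and Nfe2l2, which encodes NRF2, overlapped (0.11, SE 0.14). Lower calls numbered 6, 0, 5, 4 and 0 without line 376, 377, 378, 382 and 383.

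Mitochondrial and stress lists held 4, 4 and 3 calls. Of 23 oxidative phosphorylation genes 4 were called lower (17.4%, beside 4.28% of all genes), among them Ndufs1, Sdhb and Uqcrfs1 with differences of -0.69, -0.59 and -0.52, and the list median was -0.08. Among 20 genes of the unfolded protein response, the transcription factor genes Xbp1 and Atf4 were called higher and the ER proteins Creld2 and Sdf2l1 lower. That is 10% each way, beside 4.39% of all genes called higher and 4.28% lower. Xbp1 stood at 184, 241 and 290 CPM against 407 and 393 CPM (0.76, SE 0.17), and Atf4 at 234, 301 and 347 CPM against 434 and 446 CPM (0.59, SE 0.16). In both of them line 376 was the lowest of the 5. Creld2 and Sdf2l1 differed by -0.78 and -0.56. In the hypoxia and glycolysis list, with 20 tested members of 22, Ndrg1 was called higher and Egln3, a HIF prolyl hydroxylase, and Tpi1, a glycolytic enzyme, lower (-1.21 and -0.56), which is 5% and 10% of the tested members. None of the calls in these 3 lists held without line 382 or without line 383.

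Among signalling and matrix lists, the calls were scattered over a few genes. Over all genes, 4.39% were called higher and 4.28% lower. F3, tissue factor and a YAP target, stood at 318, 394 and 336 CPM against 750 and 765 CPM (1.13, SE 0.14), and Cyr61, of the same list, differed by 0.75 (SE 0.14), the 2 calls among 18 YAP targets. In the TGF-beta list, with 18 tested members of 20, Inhba, an activin subunit, stood at 13.7, 13.0 and 15.6 CPM against 25.3 and 58.0 CPM (1.57, SE 0.30), and line 383 was the highest of the 5. Skil and Ltbp1 of that list were also higher (0.49 and 0.49), and Id1 was lower (-1.58). In all, 3 members of the list were called higher and 2 lower (16.7% and 11.1%). The list's median was -0.02, and the difference was below 0 in 9 of the 18. Mmp14, a membrane-bound matrix protease, stood at 63.4, 64.3 and 67.2 CPM against 106 and 119 CPM (0.80, SE 0.13), and Ctsl and Plaur differed by 0.52 and 0.52, the 3 calls among 25 tested matrix and protease genes of 30.

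Myc stood at 424, 611 and 549 CPM against 904 and 837 CPM (0.73, SE 0.16), and it was the higher call among 10 tested Wnt and Notch targets of 16, in which the Notch targets Hes1 and Nrarp were lower (-0.73 and -1.13). The AP-1 genes Fosl1, Fosl2 and Jund were called higher (0.71, 0.91 and 0.58) among 13 tested immediate early genes of 15. These calls were 23.1%, beside 4.39% of all genes, and no member was called lower by edgeR's quasi-likelihood test. The list's median was -0.06, and the difference was below 0 in 7 of the 13, down to -2.03. DESeq2 called 3 members higher and 2 lower, and limma voom 3 higher and 3 lower. Egr1, at 47.7, 81.4 and 123 CPM against 51.8 and 37.6 CPM, overlapped. Igf1r was the call among 19 tested growth factor receptors and ligands of 24 (0.69, SE 0.14). That is 5.26%, near the 4.39% of all genes called higher. Without line 383 none of the genes called in these 6 lists was called, and without line 382 F3, Inhba and Mmp14 were.

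Esrp1, a splicing factor of epithelial cells, stood at 59.5, 82.8 and 91.3 CPM against 143 and 155 CPM (0.94, SE 0.17) and was called among 17 tested epithelial junction genes of 21 (5.88%, near the 4.39% of all genes called higher). Vim, vimentin, stood at 49.8, 37.2 and 65.8 CPM against 12.8 and 24.2 CPM (-1.45, SE 0.32) and was called among 14 tested mesenchymal genes of 20 (7.14%, beside 4.28% of all genes called lower). Vim stood far higher in the primary lines, at 379 and 309 CPM, and lower in the shTrp53 metastatic lines, at 0.391 to 6.45 CPM. The medians of these lists were 0.02 and 0.00. Vim was not called without line 376, 382 or 383, nor Esrp1 without line 382 or 383. No gene was called in the interferon response (15 tested of 25), class I antigen presentation (12 of 13) or integrin (10 of 12) lists by edgeR's quasi-likelihood test. At an unadjusted p of 0.05 they held 2, 2 and 1 genes, DESeq2 called 2, 1 and 1 and limma voom 2, 1 and 0. Their medians were -0.16, -0.09 and 0.15.

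**Figure D4:**
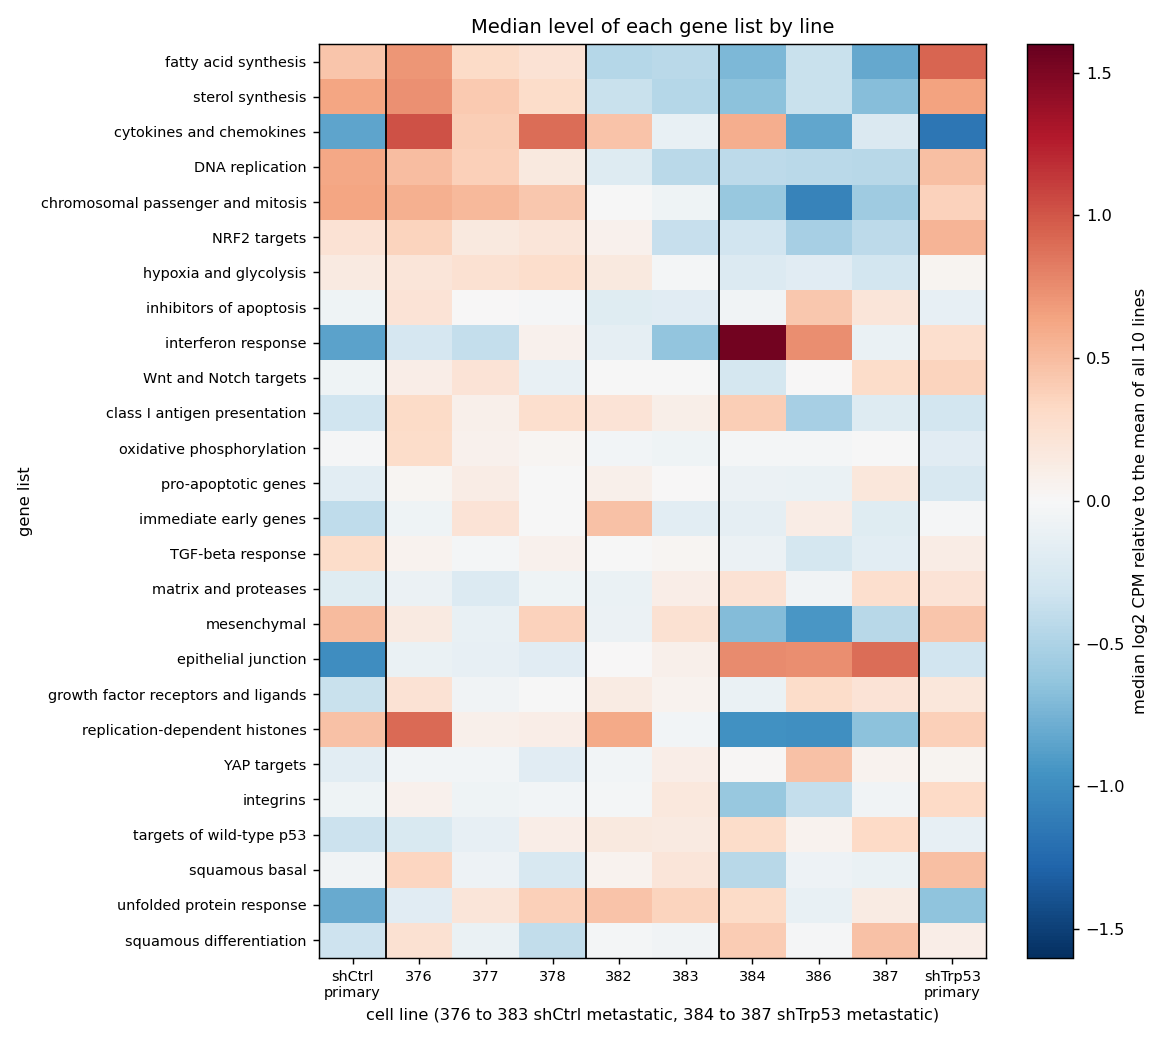
Each cell gives, for 1 gene list (vertical axis) and 1 of the 10 lines (horizontal axis), the median over members of log2 CPM relative to the mean of all 10 lines, red above and blue below. The upper lists of lipid synthesis, replication and mitosis are red in lines 376 to 378 and in both primary lines and pale or blue in lines 382 and 383, where the sterol list stands at -0.35 and -0.45.

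Single lines stood out to different degrees. Line 376 held 28 genes at least 2-fold above and 71 at least 2-fold below every other line of the 5, and line 383 held 1 and 29. Lines 377, 378 and 382 held 1 and 5, 3 and 1, and 4 and 0 such genes. The highest genes of line 376 by this measure were the chemokine genes Cxcl5 and Ppbp, neighbours in 1 cluster, and Sema4d, a semaphorin. Ppbp stood at 55.8 CPM in line 376 and at 2.22 to 6.17 CPM in the other 4. Its lowest were Avil (an actin-binding protein), Stc2 (a secreted stanniocalcin) and Car6 (a secreted carbonic anhydrase). Car6 stood at 4.76, 28.1 and 57.9 CPM in lines 376, 377 and 378 and at 171 and 191 CPM in lines 382 and 383 (2.60, SE 0.96, not called).

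Line 383 was lowest in Acss2, a cytosolic acetyl-CoA synthetase and member of the fatty acid list, at 0.741 CPM against 5.39 CPM in line 382 and 11 to 19.8 CPM in lines 376 to 378. The shTrp53 metastatic lines stood at 0.832 to 1.17 CPM for this gene. Sostdc1, a secreted BMP and Wnt antagonist, and Aspa followed in line 383, and its highest were Inhba, Fam214b and Mxd4. In line 378 the highest were C1qtnf3, Id4 and the small heat shock protein gene Cryab. Id4, an inhibitor of helix-loop-helix factors, stood at 192 CPM in line 378, 44.7 and 51.5 CPM in lines 377 and 376 and 31.4 and 36.3 CPM in lines 383 and 382, and the primary lines stood at 585 and 680 CPM. Line 377 was highest in the actin-binding Cotl1, at 162 CPM against 24.3 to 69.3 CPM in the other 4. Line 382 was highest in N4bp2l1, Tslp and Ampd3.

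By chromosome, the median difference between the blocks lay between -0.10 (X) and 0.08 (18), for genes with a mean of at least 5 CPM. The share of genes called ran from 7.83% on chromosome X to 13.4% on chromosome 1, beside 10.6% of all 9373 such genes. No chromosome as a whole was shifted between the blocks by more than 0.10 on the log2 scale.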

How the data were processed

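RNA of 10 cell lines was sequenced after cDNA synthesis from 1 ng of total RNA with the SMART-Seq v4 chemistry, per the labels' protocols. The authors deposited counts per gene, whole numbers that were taken as raw because their totals differ between libraries. STAR 2.5, Cufflinks 2.2.1, DESeq2 and genome build mm9 appear in the submitters' processing notes without their roles. Annotation and strandedness were not given in the sources used here, so reads of a gene and of one that overlaps it on either strand are indistinguishable. Of 12824 rows, 18 carry a bare number in place of a gene name (0.332 to 0.491% of a library's counts) and were left out, which left 12806 genes. RefSeq tables of GRCm38.p6 matched 12600 names by symbol and 185 by synonym, a GENCODE annotation matched 9 more, and 12 were unmatched. These tables served for names, chromosomes and promoters, and no coordinate was converted between builds.

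Groups came from the sample titles, and no batch is named in the labels. No 2 libraries were identical. A fit of the 5 control metastatic lines compared the blocks (R 4.3.3, edgeR 4.0.16: filterByExpr, TMM, robust glmQLFit, glmQLFTest), and p-values were adjusted by Benjamini-Hochberg over all 12045 genes tested. The biological coefficient of variation was 17.8%. The SE is the log2 difference divided by the square root of F. For CPM, TMM factors were taken over all 10 libraries, and log2 levels by line used a prior count of 2. The 250 bases before to 50 after each gene start were searched for motifs on both strands, and a gene counted if any of its promoters matched.

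The blocks, the 26 gene lists and the motifs were chosen with earlier results of these data known. Named genes are Trp53, Birc5, the 12 largest called differences each way with a mean of at least 5 CPM, no overlap and a proper name, up to 4 called members of a list by mean CPM (or 2 where none is called), and the 3 genes highest and lowest in each line. Some genes that this rule or a list covers are not reported here. Other genes named, such as Sox4, Aurkb or Mcm7, were chosen after their values were seen.

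Alternatives tried were upper-quartile scaling, size factors of DESeq2 1.42.0 and its own Wald test, limma 3.58.1 voom with quality weights, no low-count filter, a minimum mean of 5 CPM, dispersion without robust fitting, a test against a 1.5-fold change and leaving out each line. The scripts were tested on simulated data.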

Additional observations from a re-analysis of the deposited data

How the results depend on the processing

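The counts of genes called between the blocks kept within 1.5 times of 1045 under DESeq2 size factors (1045), upper-quartile scaling (1057, with 445 higher and 612 lower), no low-count filter (1032), a mean of at least 5 CPM (1096) and dispersion without robust fitting (1011). DESeq2's own test called 1663 (814 higher, 849 lower), limma voom 1947 (1000 higher, 947 lower) and the test against a 1.5-fold change 28 (12 higher, 16 lower). Leaving out 1 line gave 4 to 1551 called genes, 3 to 784 higher and 1 to 767 lower, the lowest without line 383 and the highest without line 378. Among the called genes, 117 were called in all 4 fits that left out a line other than 383. Of the 65 list genes named and called, 61, 26, 58, 14 and 1 were still called without lines 376, 377, 378, 382 and 383. Among the genes named, no called difference changed sign under any of these settings. The blocks did not overlap in any called gene, so leaving out 1 line could hardly change a sign.

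A block of 2 lines gives little information on its own spread, and no label says that the lines are separate animals. Library totals in the 5 lines differed by less than 1.5 times, so depth limits mainly genes of a few CPM, such as Sprr1a and Krtap3-2. What separates the blocks (mouse, culture, library preparation or another factor) is not named in the labels and cannot be told apart from line number. No paired analysis was possible because the blocks share no line number.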

Other observations

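Of the Krüppel-like factor genes, which encode transcription factors with roles in epithelial growth and differentiation, 8 of 14 were called higher in lines 382 and 383, beside 4.39% of all genes. The family was noticed after its values were seen, among 149 groups of genes that share the letters of their name and hold at least 10 tested genes. None of the 14 tested Klf genes was called lower by edgeR's quasi-likelihood test, and their median difference was 0.70. Klf6 stood at 886, 765 and 716 CPM in lines 376, 377 and 378 and at 1659 and 1501 CPM in lines 382 and 383 (1.01, SE 0.14), with 1439, 1892 and 1487 CPM in shTrp53 lines 384, 386 and 387. Klf5, a factor of basal and proliferating epithelium, stood at 187, 200.2 and 306 CPM against 422 and 366 CPM (0.78, SE 0.20), and Klf9 at 50.8, 71.8 and 67.8 CPM against 107 and 127 CPM (0.90, SE 0.17). Klf7 stood at 46.7, 50.3 and 56.8 CPM against 82.6 and 75.2 CPM (0.63, SE 0.15), but at 29.2 to 42.5 CPM in the shTrp53 lines. Klf3, Klf4, Klf10 and Klf11 were the other 4 called. Klf genes called higher numbered 7, 3, 8, 1 and 0 without line 376, 377, 378, 382 and 383.

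Sox4, a transcription factor of progenitor cells, kept its call whichever line was left out. It stood at 239, 269 and 280 CPM in lines 376, 377 and 378 and at 753 and 763 CPM in lines 382 and 383 (1.54, SE 0.13). The primary lines stood at 251 and 224 CPM and the shTrp53 metastatic lines at 700.1, 636 and 921 CPM, so the lower level was that of the primary lines. Nr1d1, which encodes the circadian repressor Rev-erb alpha, stood at 18.4, 23.8 and 24.5 CPM against 64.7 and 71.2 CPM (1.62, SE 0.17), with 90.1 to 173 CPM in the shTrp53 metastatic lines and 43.1 and 45.0 CPM in the primary lines.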
